A study of Arabidopsis thaliana with 26 samples.

Results

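The pericentromere of chromosome 5 was taken as the HindIII fragments of that chromosome that lie between 100 kb and 1.2 Mb from the centromere and carry at most 90 genomic DNA reads. This gave 1953 of the 66846 fragments of the genome, 561 on the left side (chr5:10540905-11637112) and 1392 on the right side (chr5:11842969-12944725, TAIR10). The remaining 13192 fragments of chromosome 5 with at most 90 genomic DNA reads, from 1.2 Mb on, served as the rest of the chromosome. Contacts were measured by circular chromosome conformation capture (4C) in aerial tissue of 14-day-old Col-0 seedlings kept at 16 h light and 8 h dark. The study made 26 libraries, biological duplicates A and B of 13 viewpoints, and no library was treated or mutant. A first sequencing batch held 8 viewpoints (AG, CKI1, FIS2, FLC, FWA, PHE1 and the neighbouring MEA F6 and MEA F8). A later batch held hk4s, YAO, SWN, AT1G51860 and AT3G44380, and for these the adapters were ligated on rather than carried by the primers. FLC is the one viewpoint on chromosome 5, on its left arm. It is described apart, so that comparisons were made over 12 viewpoints.

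Pericentromeres flank the centromere and hold most of the constitutive heterochromatin of Arabidopsis. They are rich in transposable elements, poor in genes, and marked by H3K9me2 and H3K27me1, which keep elements silent. In interphase nuclei this heterochromatin gathers in dense chromocenters, from which euchromatic loops emanate. The centromere itself consists of long arrays of a short satellite repeat. In 4C, HindIII-cut crosslinked chromatin is ligated, and whatever became joined to a chosen fragment, the viewpoint, is amplified from it and sequenced. The reads on a distant fragment thus serve as a measure of its contacts with the viewpoint. The FLC gene, which represses flowering, and the floral gene AG are examples of loci that lent their names to viewpoints.

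Much of the right side consisted of one tandem repeat. Its unit of 178 bp occurred in 12 exact copies between chr5:11855394-11855571 and position 11903312, and it is shown because 884 of the 1392 right members (63.5%), but 1 of the 561 left members, were made of it. Fragments that matched the unit on either strand within an edit distance of 25% of their length are called satellite-like below. This class was drawn up after the data had been seen. The study speaks of centromeric repeats that are also 178 bp long, and whether this unit is that repeat was not tested. The other sequences are the starts of the most contacted right members and of the most contacted left member, given up to the first NlaIII site or for 90 bases. All are from the plus strand of the RefSeq copy of TAIR10. Capitals mark the HindIII site AAGCTT and, where a fragment start ends with one, the NlaIII site CATG.
Repeat unit, chr5:11855394-11855571: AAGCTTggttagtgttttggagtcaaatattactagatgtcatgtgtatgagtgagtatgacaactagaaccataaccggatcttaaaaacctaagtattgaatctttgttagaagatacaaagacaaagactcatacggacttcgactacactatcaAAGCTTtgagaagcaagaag
Right member at 144 kb, chr5:11887164-11887253: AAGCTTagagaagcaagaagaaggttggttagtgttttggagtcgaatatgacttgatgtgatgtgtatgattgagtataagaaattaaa
Right member at 314 kb, chr5:12056556-12056619: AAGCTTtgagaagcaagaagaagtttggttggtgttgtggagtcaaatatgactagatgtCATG
Right member at 126 kb, chr5:11868595-11868658: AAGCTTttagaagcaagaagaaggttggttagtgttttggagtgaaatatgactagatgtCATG
Left member at 550 kb, chr5:11181032-11181061: AAGCTTgaaaccatcttcactaactcCATG

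The unit holds 2 HindIII sites. The commonest lengths among the members were 26 bp (326 fragments) and 164 bp (128 fragments), followed by 184 bp (102 fragments), so that the median length was 165 bp on the right side and 1063 bp on the left. Without satellite-like fragments the right side had a median length of 1113.5 bp, against 1188 bp in the rest of chromosome 5. The repeat lay close to the centromere: on the right side it made up 494 of 518 members at 100 to 200 kb, 236 of 285 at 200 to 300 kb and 153 of 190 at 300 to 400 kb. The pericentromere of chromosome 1 had 353 satellite-like fragments among 1569 and that of chromosome 3 had 12 among 1060.

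The chromatin of the members was that of heterochromatin. The deposited densities give the percentage of a fragment's bases covered by reads of a published experiment. The mean density of H3K9me2 was 34.3% in the members and 2.36% in the rest of chromosome 5, and that of H3K27me1 was 37.4% against 4.97%. Marks of active chromatin were the other way round, with 5.58% against 36.5% for H3K36me3 and 3.12% against 31.4% for H3K4me2, and transcription covered 0.76% against 18.9%. H3 itself covered 64.3% against 49.8% and the chromatin input 63.5% against 41.3%, and the part of input coverage in the other densities was not tested. An annotated gene lay on 7.58% of the members and on 84.5% of the other fragments.

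The sides differed in these features as well. An annotated transposable element lay on 88.1% of left members and on 32.8% of right members, but on 89.6% of right members that were not satellite-like. H3K9me2 density was 26.2% on the left and 37.5% on the right. Genes lay on 18% of left and 3.38% of right members, and transcription covered 2.09% and 0.225%.

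Genomic DNA reads, which the authors counted in the same way as 4C reads, show how well a fragment could be read without any contact. The members carried 10.1 of them on average and the rest of chromosome 5 carried 9.52. Satellite-like members carried 12 on average, but 140 of these 885 had none, whereas 1 of the other members had none. The limit of 90 reads removed 16 fragments, all of them satellite-like. The member just inside the limit carried 89 genomic DNA reads and had a median of 1.32 4C reads per 1000000 kept reads (RPM) over the viewpoints, and the fragment just outside carried 94.1 and had 22.5 RPM.

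In each library, RPM were computed from the HindIII-end reads on kept fragments, that is, fragments with a second-enzyme site under 1000 bp from an end, at least 1 kb from the viewpoint and at least 100 kb from a centromere. Of the members, 1318 were kept for the 7 viewpoints taken as made with NlaIII and 1291 for the 6 made with DpnII. The study's methods name NlaIII for the former, whereas its primer list gives NlaIV, and which fragments entered a ratio depends on this choice. With NlaIV, the ratio of members to the rest of the chromosome given below was -0.83 and that of the left to the right side 0.34, both in the same direction in 12 of 12 viewpoints. Kept reads numbered 254750 to 3370541 per library, of which 876 to 47377 fell on members. The p-values below measure the spread between viewpoints. Reads were amplified without molecular identifiers and are not independent molecules.

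From all 12 viewpoints on other chromosomes, the pericentromere of chromosome 5 was contacted less than the rest of that chromosome. Members carried a mean of 4.59 ± 1.4 RPM (SD, n = 12 viewpoints) and the other fragments 8.18 ± 1.7 RPM. The log2 ratio within a library was -0.87 ± 0.44, which is 1.83-fold fewer reads per member, with the same direction in 12 of 12 viewpoints (p = 0.000488 in a two-sided exact permutation test of signs, the smallest value this design can give; adjusted p = 0.00146 over 9 tests). Counted per genomic DNA read, the ratio was -1.03, and without satellite-like fragments it was -0.74. MEA F6 and MEA F8 lie at the same locus and are not independent. Joined as 1 viewpoint, they left a ratio of -0.83, below 0 in 11 of 11 viewpoints (adjusted p = 0.00176, exact permutation test of signs). Other viewpoints share a chromosome arm, such as SWN, hk4s and YAO, and the study reports higher correlations between viewpoints of the same arm. The test takes viewpoints as independent, and the effect of shared arms on p was not tested. Fewer of the fragments were hit at all, 55.3% of members against 61.2% of the others on average, with this direction in 9 of 12 viewpoints. In PHE1, AG and AT1G51860 the share hit was higher among members.

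The ratio differed widely between viewpoints. It was lowest for the viewpoints MEA F8 (-1.49) and SWN (-1.47), of which SWN encodes a Polycomb histone methyltransferase. AT3G44380 (-1.15), MEA F6 (-1.10), CKI1 (-1.07), YAO (-1.05) and FIS2 (-0.89) followed. FWA (-0.76), AT1G51860 (-0.65) and AG (-0.43) were nearer to 0. It was highest for hk4s (-0.30), which lies in the heterochromatic knob of chromosome 4, and for PHE1 (-0.0957). Most neighbours in this order differed by less than the sum of their SDs between duplicates, the exceptions being YAO against FIS2 and FIS2 against FWA.

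The duplicates show where a viewpoint's value is firm. For PHE1, replicate A had 8.59 RPM on members and 8.21 on the rest, a ratio of 0.0653, and replicate B had 7.28 and 8.69, a ratio of -0.26. PHE1 A was the one library of the 24 in which members were not below the rest. For hk4s, members had 5.78 RPM in A and 4.08 in B, against 6.85 and 5.23 on the rest. For MEA F8, members had 3.33 and 3.15 RPM against 8.59 and 9.59. Replicate A had the higher ratio in 11 of the 12 viewpoints, by 0.21 on average. By the methods, each replicate of a batch was sequenced on its own lane, so that within a batch replicate and lane cannot be told apart. FWA was the closest pair, with 5.38 and 5.37 RPM on members and ratios of -0.74 and -0.78. MEA F6 was the widest, with ratios of -0.84 and -1.36.

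**Figure D1:**
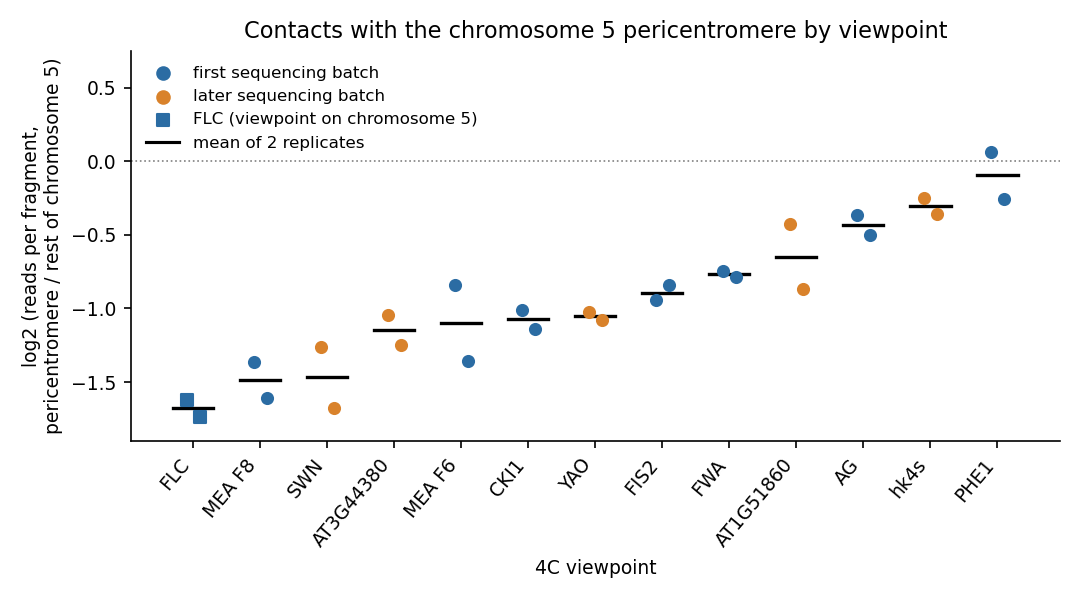
Log2 ratio of mean HindIII-end reads per fragment, members over the rest of chromosome 5, for each viewpoint (points: replicates A and B; black line: their mean; colours: sequencing batch; squares: FLC). Viewpoint means run from -1.49 for MEA F8 to -0.0957 for PHE1, and from FLC the mean was -1.68. For FLC, the rest includes the fragments near the viewpoint. Against its own arm, with 2 Mb around the viewpoint left out, the left side gave -0.91 and the right side -0.92. Left members lie farther from FLC than the arm fragments they were divided by, and distance was not matched.

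The batches did not separate the viewpoints by this ratio. The mean ratio was -0.84 ± 0.46 for the 7 viewpoints of the first batch that lie off chromosome 5 and -0.92 ± 0.45 for the 5 of the later batch. The difference of -0.0882 did not pass an exact permutation test (two-sided, p = 0.747, adjusted p = 0.841). Among the 7 NlaIII viewpoints alone, the later batch had the higher ratio, by 0.37 (adjusted p = 0.429, exact permutation test). Batch, second enzyme and distance of the viewpoint to its own centromere move together in this design and cannot be told apart. Over the 12 viewpoints, the ratio had a Spearman correlation of -0.196 and a Pearson r of -0.206 with that distance. The Spearman correlation was -0.75 over the 7 viewpoints of the first batch and -0.0424 without the 2 viewpoints farthest from the median distance.

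Relative to the rest of its chromosome, the pericentromere of chromosome 1, which also holds satellite-like fragments, was contacted less than that of chromosome 5. Over the 8 viewpoints on neither of these chromosomes, its ratio to the rest of its own chromosome was -1.42 ± 0.30, against -0.89 ± 0.38 for chromosome 5 in the same viewpoints. The difference was 0.53 ± 0.13, in the same direction in 8 of 8 viewpoints (exact permutation test of signs, p = 0.00781, the smallest possible; adjusted p = 0.0117). When reads were counted per genomic DNA read, it came to 0.0392 (adjusted p = 0.431, exact permutation test of signs), the kept fragments of the chromosome 1 pericentromere carrying fewer of these (7.87 against 10.8 for NlaIII viewpoints). For chromosome 3, the ratio was -0.83 ± 0.60 over 11 viewpoints, and chromosome 5 differed from it by -0.0193 ± 0.29 (adjusted p = 0.843, exact permutation test of signs). This depended on the treatment of genomic DNA reads: chromosome 5 was lower by the test when reads were counted per genomic DNA read (-0.24, 9 of 11 viewpoints, adjusted p = 0.0425) and without the limit of 90 genomic DNA reads (-0.57, 10 of 11 viewpoints, adjusted p = 0.00879, exact permutation tests of signs).

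In bands of 100 kb, the left side had mean log2 ratios between -1.005 (1000 to 1100 kb) and -0.43 (900 to 1000 kb). On the right side, they lay between -1.34 (1000 to 1100 kb) and -0.66 (300 to 400 kb). The 12 viewpoints were unanimous in few bands of the left side and in most of the right. All 12 were below the rest of the chromosome in 7 of 11 right bands, and in 1 of 11 left bands, that at 100 to 200 kb. Duplicates ordered the 22 bands with a Spearman correlation between 0.226 (MEA F6) and 0.938 (FLC), so that single bands were poorly repeated for several viewpoints.

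**Figure D2:**
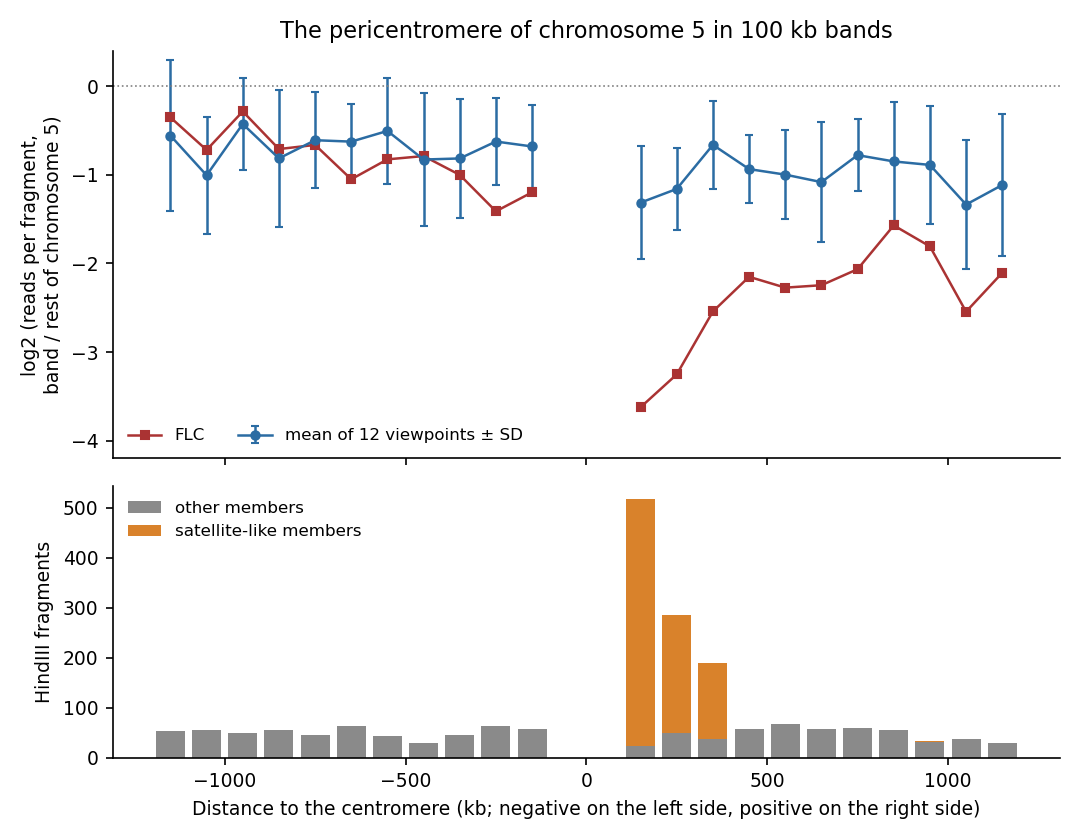
Upper panel: log2 ratio of mean reads per fragment in each 100 kb band over the rest of chromosome 5, by distance to the centromere (negative: left side), as mean ± SD of 12 viewpoints and for FLC. For FLC, this rest includes the fragments near the viewpoint, which raises the level that its bands are divided by. Lower panel: number of members per band, with the satellite-like fragments mostly in the right bands from 100 to 400 kb (494, 236 and 153 fragments).

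The left side was contacted more than the right. Left members carried between 3.55 RPM (YAO) and 9.48 RPM (PHE1), with a median of 5.01, and right members between 2.75 RPM (SWN) and 7.03 RPM (PHE1), with a median of 4.39. The log2 ratio of left over right was 0.40 ± 0.27, or 1.32-fold (higher on the left in 11 of 12 viewpoints, exact permutation test of signs, p = 0.00195, adjusted p = 0.00439). It was highest for AG (0.79), where both duplicates were high (0.76 and 0.83). MEA F6 was the exception, with -0.27. In that viewpoint, replicate A had the same level on both sides (6.32 and 6.33 RPM) and replicate B had 2.9 RPM on the left and 4.21 on the right. The ratio was higher in replicate B in 10 of the 12 viewpoints, by 0.18 on average.

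Without satellite-like fragments, the difference between the sides was smaller and had one sign. Right members of other sequence carried 4.52 ± 1.22 RPM and left members 5.40 ± 1.7 RPM. The log2 ratio was 0.24 ± 0.16, higher on the left in 12 of 12 viewpoints, MEA F6 included (0.17; adjusted p = 0.0022, exact permutation test of signs). The arms themselves also differed: outside the pericentromere, the left arm carried 8.73 ± 2.04 RPM and the right arm 7.77 ± 1.52. The log2 ratio of the left arm over the right arm was 0.16 ± 0.16. Taken relative to the rest of its own arm, the left side exceeded the right by 0.24 ± 0.35 (10 of 12 viewpoints, adjusted p = 0.0496, exact permutation test of signs). Satellite-like fragments and the arm difference were each taken out alone. Whether the sides still differ with both taken out was not tested. Per genomic DNA read the left side exceeded the right by 0.81, and the share of fragments with reads did not separate the sides (0.0595, adjusted p = 0.344, exact permutation test of signs).

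**Figure D3:**
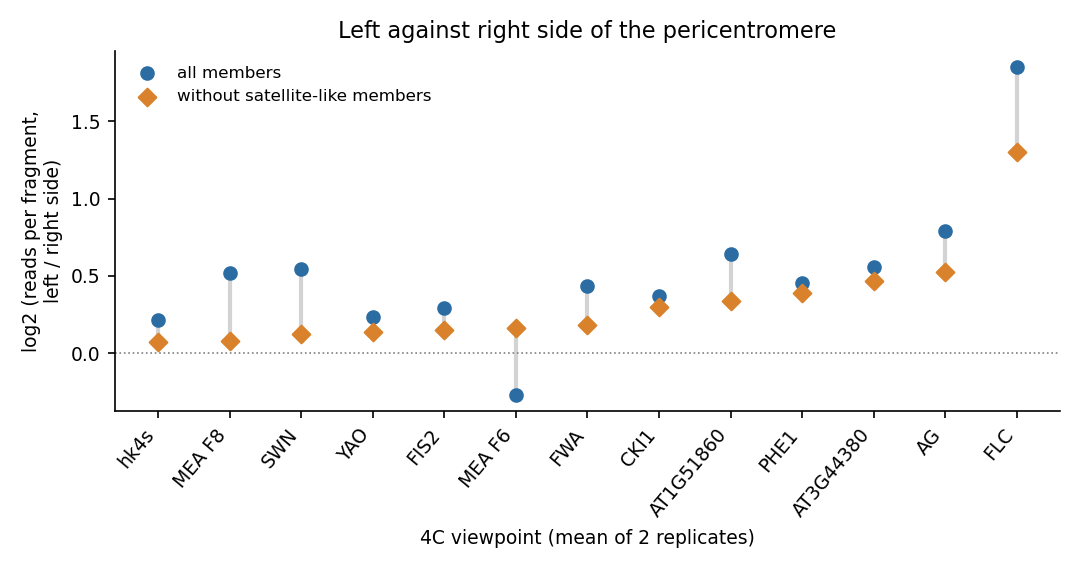
Log2 ratio of mean reads per fragment, left over right side of the pericentromere, for each viewpoint (means of 2 replicates), over all members and without satellite-like members. MEA F6 lies at -0.27 with all members and at 0.17 without satellite-like ones, and FLC stands apart at 1.85 and 1.30.

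Satellite-like members were themselves contacted less than the other members in most viewpoints. They carried 3.71 ± 1.63 RPM and the other members 4.99 ± 1.46 RPM, and their log2 ratio was below 0 in 11 of 12 viewpoints. Per genomic DNA read the ratio was -1.33 ± 0.48 and below 0 in all 12. Replicate A had more RPM on them in 11 of the 12 viewpoints (4.44 against 2.98 on average). These values are a description, since the class was drawn up after the data had been seen. The neighbouring viewpoints at the MEA locus, which encodes a Polycomb protein of the seed, had the highest and the lowest log2 ratio of satellite-like over other members among the 12 viewpoints, 0.57 for MEA F6 and -1.20 for MEA F8. MEA F6 had 8.00 and 4.91 RPM on satellite-like members, and MEA F8 had 1.36 and 2.15. On the other members the same libraries had 5.55 and 3.20 RPM for MEA F6 and 4.24 and 3.61 for MEA F8.

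Members near the centromere were contacted slightly less than those farther away, but not once satellite-like fragments were left out. Members at 100 to 650 kb carried 4.37 ± 1.38 RPM and those at 650 kb to 1.2 Mb carried 5.02 ± 1.59. The log2 ratio was -0.21 ± 0.27 (lower near the centromere in 10 of 12 viewpoints, exact permutation test of signs, p = 0.0244, adjusted p = 0.0314). Without satellite-like fragments it was -0.0115 (adjusted p = 0.872), and it passed the exact permutation test neither on the left side alone (-0.0837, adjusted p = 0.426) nor on the right side alone (-0.13, adjusted p = 0.254).

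The FLC viewpoint, on the left arm of the same chromosome, showed the 2 sides at very different levels. Left members carried 32.7 RPM in replicate A and 28.9 in B, and right members carried 8.56 and 8.49. The log2 ratio of left over right was 1.85 ± 0.12 (SD, n = 2 replicates), a 3.61-fold difference and above every other viewpoint. Without satellite-like fragments it was 1.30 ± 0.21. Each side was nonetheless lower than its own arm. The left side was lower by 0.91 ± 0.11 on the log2 scale, with fragments within 2 Mb of the viewpoint left out of the arm (57.8 RPM). The right side was lower by 0.92 ± 0.0112 (16.2 RPM on the right arm). FLC lies 8.56 Mb from the centromere, so left members are farther from the viewpoint than the arm fragments they were divided by. Distance to the viewpoint was not matched, and its part in the left value was not tested. The left bands fell from 41.9 RPM at 1100 to 1200 kb to 23.3 RPM at 100 to 200 kb from the centromere, and the right bands from 12.4 to 4.35 RPM, with the highest right band (18.0 RPM) at 800 to 900 kb. No test was made on this single viewpoint.

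Within the pericentromere, members with more H3K9me2 carried more reads. The upper tertile of density (at least 40.7% or 42.3% covered, depending on the enzyme) had 5.24 RPM on average and the lower tertile (at most 15.9% or 16.9%) had 3.85. The log2 ratio was 0.46 ± 0.20 and above 0 in 12 of 12 viewpoints, from 0.0898 to 0.79 (exact permutation test of signs, p = 0.000488, adjusted p = 0.00146). The upper tertile also carried more genomic DNA reads, 14.0 against 8.13 per fragment. Counted per genomic DNA read the direction turned, to -0.32 ± 0.24 (lower in 10 of 12 viewpoints, adjusted p = 0.00527, exact permutation test of signs). Without satellite-like fragments the ratio was 0.11 ± 0.27, with 6 of 12 viewpoints above 0 (adjusted p = 0.289, exact permutation test of signs). With satellite-like fragments included, it was 0.69 ± 0.091 within classes of side and distance to the centromere. Within classes of fragment length it was 0.53, and both were above 0 in 12 of 12 viewpoints.

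H3K27me1 gave ratios of the same direction. The upper tertile had 5.20 RPM and the lower 3.66, a log2 ratio of 0.52 ± 0.26, above 0 in 12 of 12 viewpoints (exact permutation test of signs, p = 0.000488, adjusted p = 0.00146). It was lowest for MEA F6 (0.0426) and highest for MEA F8 (1.05). The upper tertile carried 13.2 genomic DNA reads per fragment and the lower 8.16, and per genomic DNA read the ratio was -0.18 ± 0.25 (adjusted p = 0.0433, exact permutation test of signs). Without satellite-like fragments it was 0.16 ± 0.27 (9 of 12 viewpoints above 0, adjusted p = 0.113, exact permutation test of signs). With them included, it was 0.54 within classes of side and distance and 0.48 within classes of length, above 0 in 12 of 12 viewpoints. For NlaIII viewpoints, the upper tertile held 112 satellite-like fragments and the lower 196, against 147 and 128 for H3K9me2. In the rest of chromosome 5, where the lower class held only fragments without the mark, the split by H3K9me2 gave 0.31 ± 0.19 and that by H3K27me1 gave 0.29 ± 0.18 (both above 0 in 12 of 12 viewpoints, adjusted p = 0.000732, exact permutation test of signs). The upper class there began at 0.09% density for H3K9me2 and 3.61% for H3K27me1, far below that of the members. Its fragments were also longer than those of the lower class, with medians of 2659 against 1218 bp and 1465 against 835 bp. Between these unlike classes, the split was larger in the members by 0.15 for H3K9me2 (adjusted p = 0.147) and by 0.22 for H3K27me1 (adjusted p = 0.00952, exact permutation test of signs). These differences turned per genomic DNA read, where the split by H3K27me1 was smaller in the members than in the rest (-0.46, 11 of 12 viewpoints) and likewise that by H3K9me2 (-0.63, 11 of 12 viewpoints, both adjusted p = 0.00146, exact permutation tests of signs). Without satellite-like fragments they were -0.14 (adjusted p = 0.166) and -0.20 (adjusted p = 0.151, exact permutation tests of signs). In the rest of the chromosome the upper and lower class for H3K27me1 carried 9.80 and 9.75 genomic DNA reads, unlike in the members.

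Members with at least 1 annotated transposable element carried more reads than those with none, 5.17 against 3.74 RPM. The log2 ratio was 0.54 ± 0.46 (11 of 12 viewpoints above 0, exact permutation test of signs, p = 0.00391, adjusted p = 0.00703). MEA F6 was again the exception (-0.64), whereas MEA F8 had the highest ratio (1.21). Most of the members with no element were satellite-like, 390 of 481 for DpnII and 417 of 502 for NlaIII viewpoints, and their median length was 172 bp against 1620 bp. They also carried more genomic DNA reads, 14.3 against 8.82. Without satellite-like fragments the ratio was 0.45 ± 0.36 (11 of 12 viewpoints, adjusted p = 0.00732), within classes of fragment length it was 0.24, and per genomic DNA read it was 1.24 (exact permutation tests of signs). Leaving out satellite-like fragments made the class without an element small. Satellite-like fragments and fragment length were each taken out alone, and not together. In the rest of chromosome 5, fragments with an element did not pass the test against those without (-0.0952 ± 0.38, 5 of 12 viewpoints above 0, adjusted p = 0.397), and the difference between members and rest was 0.64 ± 0.53 (adjusted p = 0.00586, exact permutation tests of signs). It was 0.54 without satellite-like fragments (adjusted p = 0.00586) and 1.26 per genomic DNA read (adjusted p = 0.00146, exact permutation tests of signs). In the rest, too, fragments with an element were longer, with medians of 3045 against 1252 bp. Length was not matched in the difference between members and rest.

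**Figure D4:**
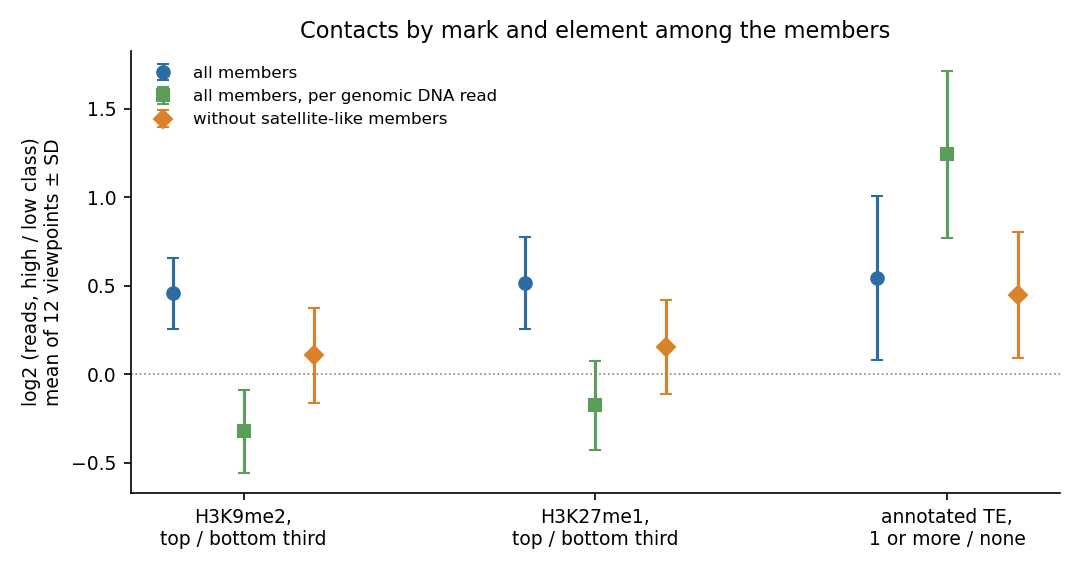
Log2 ratio of reads between members with much and little H3K9me2 or H3K27me1 (upper over lower tertile) and between members with and without an annotated transposable element (TE), as mean ± SD of 12 viewpoints. The splits by mark lie at 0.46 and 0.52 with all members, at -0.32 and -0.18 per genomic DNA read and at 0.11 and 0.16 without satellite-like members, and that by element stays above 0 throughout.

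The members with the highest median rank over the 13 viewpoints were long fragments on the left and satellite-like ones on the right. On the left, a fragment of 11570 bp at chr5:11181032-11192601 had a median of 21.7 RPM, from 0 in AT1G51860 to 93.2 in FLC. It holds the gene AT5G29560, annotated as a caleosin-related protein, 5 annotated elements, and 62.8% H3K9me2 density, and it carried 21.5 genomic DNA reads. A fragment of 6968 bp at chr5:10577625-10584592 with the DNA-binding family gene AT5G28590 had a median of 18.9 RPM, from 1.26 in YAO to 190 in FLC. A fragment of 10876 bp at chr5:10628427-10639302 with AT5G28630, annotated as a glycine-rich protein, had 16.3 RPM, from 8.67 in MEA F8 to 155 in FLC. All 3 were highest in FLC, whose arm they lie on.

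On the right, the starts printed above belong to fragments of 204, 184 and 185 bp, 144, 314 and 126 kb from the centromere. They matched the repeat unit at 84.8%, 90.2% and 90.3% of positions and hold no annotated gene or element. The first, at chr5:11887164-11887367, had a median of 85.4 RPM and carried 67.3 genomic DNA reads. It holds no NlaIII site and so entered no ratio of the NlaIII viewpoints, yet it had 38.4 to 578 RPM there, with the highest values in hk4s (563) and YAO (578), and 17.6 to 151 RPM in the DpnII viewpoints. The second, at chr5:12056556-12056739, had 13.5 to 94.2 RPM, and the third, at chr5:11868595-11868779, had 9.63 to 82.4. Both hold no DpnII site, and their reads in DpnII viewpoints entered no ratio. The ranking used the reads of all viewpoints, including those for which a fragment was not kept.

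**Figure D5:**
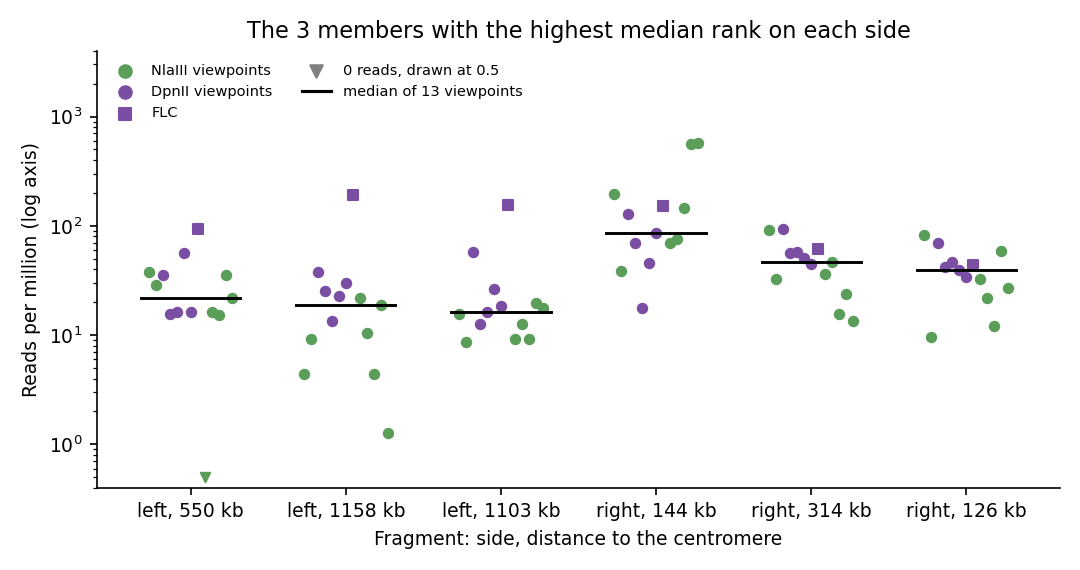
RPM (log axis) of the 3 members with the highest median rank on each side, 1 point per viewpoint (mean of 2 replicates), coloured by second enzyme, with FLC as a square and the median as a line. FLC is the highest point of the 3 left fragments (93.2, 190 and 155 RPM) but not of the right ones.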

How the data were processed

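Reads per HindIII fragment were analysed as deposited. The authors split reads by viewpoint primer, trimmed them to 30 bp, aligned them without mismatches to TAIR10 with Bowtie 0.12.7, discarded reads with more than 25 matches, and shared the other multiple matches by weight, so that the deposited values are expected counts and partly fractional. This treatment bears on repeats such as the satellite. The authors' genomic DNA expected counts came from published reads treated alike. Deposited signal values of marks are the percentage of a fragment covered by uniquely aligned reads. Deposited scores are numbers of annotated features in steps of 0.5, and other deposited columns hold distances in base pairs. All 66846 fragments had HindIII sites at both ends in the RefSeq sequence, except that no site was required at the ends of chromosomes. Deposited distances to the second site were checked in replicate A of MEA F6 only. Whether a fragment had such a distance matched the presence of an NlaIII site in 100% of fragments and of a DpnII site in 85.3%. The reference was therefore searched for the sites of the enzyme that each viewpoint was made with.

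Read numbers were not rounded, since no count model was fitted. Log2 ratios of mean RPM were taken within a library, averaged over both replicates of a viewpoint, and tested over viewpoints by an exact permutation test that flips the signs of the viewpoint values in every way (two-sided, Benjamini-Hochberg over 9 tests, threshold 0.05). The comparisons with the rest of chromosome 5 within a split were adjusted among the 3 splits. With 12, 7 or 5 viewpoints, the smallest p is 0.000488, 0.0156 or 0.0625. Fragments named are the 3 members per side with the highest median rank over 13 viewpoints, with those nearest to the limit of 90 genomic DNA reads. Fragments with an element score of 0.5 entered neither class. Marks were split into tertiles among kept fragments. In the rest of chromosome 5 the lower class took in all fragments without the mark and so was larger than a tertile. The members, rules and tests were chosen with earlier results of these data known, and the satellite-like class and the alternatives using it were added after seeing the data. Letters A and B mark separate read files per the methods, with a separate lane for each letter in each batch. Libraries of the same letter were taken as paired. Whether reads at ends of the second enzyme were counted is not given in the sources used here, and only reads at HindIII ends entered the main values. Alternatives were other read ends, scalings, filters, enzymes, batches, single replicates and splits. The procedure was tested on simulated data. Python 3.11.15, NumPy 2.4.6, pandas 2.3.3, edlib 1.3.9.post1 and matplotlib 3.10.9 were used.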

Additional observations from a re-analysis of the deposited data

Results flagged for a closer look

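MEA F6 and YAO went against the mean direction of a comparison in both of their duplicates. MEA F6 had a left over right log2 ratio of -0.27 (-0.00135 in A and -0.54 in B), while both duplicates of the other 11 viewpoints were above 0. In the comparison of members at 100 to 650 kb with those at 650 kb to 1.2 Mb, MEA F6 had 0.40 (0.50 and 0.31) and YAO had 0.0961 (0.0293 and 0.16), while both duplicates of 9 viewpoints were below 0. In the split by annotated transposable elements, MEA F6 had -0.64 (-0.68 and -0.60), while both duplicates of 11 viewpoints were above 0. These differences between viewpoints were not tested. In the same libraries, satellite-like members carried 8.00 and 4.91 RPM from MEA F6 and 3.53 and 2.15 RPM from YAO. Groups of 2 replicates are too small for a test of single outlying libraries.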

How the results depend on the processing

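Of 150 tested values under alternatives, 109 kept direction and side of the threshold. Counted per genomic DNA read, the splits by H3K9me2 and H3K27me1 turned to -0.32 and -0.18, the difference from chromosome 1 was 0.0392 and that from chromosome 3 passed at -0.24. Without satellite-like fragments these were 0.11 and 0.16 for the marks, -0.0115 for near against far members and 0.12 against chromosome 3. Near against far members gave -0.0837 on the left side, -0.13 on the right side, -0.16 without a limit on genomic DNA reads and 0.00597 for the share of fragments with reads, where left over right was 0.0595. Without the limit, the difference from chromosome 3 passed at -0.57. With 5 viewpoints or fewer no test can pass whatever the values, so the losses there do not show a change. With DpnII viewpoints only, the main ratio was -0.65, left over right 0.47, near over far -0.25, the splits 0.39, 0.60 and 0.61, and the difference from chromosome 1 was 0.59, as in the first batch. With the later batch only, these were -0.92, 0.44, -0.32, 0.43, 0.42, 0.57 and 0.47. With NlaIII viewpoints only, left over right was 0.35, near over far -0.19, the element split 0.49, the difference from chromosome 1 0.47 and between batches 0.37. With the first batch only, left over right was 0.37, near over far -0.13, the element split 0.52 and the difference from chromosome 3 0.0938. With both kinds of ends the batches differed by 0.0373. The cause of the changes was not tested.

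Leaving out replicate A or B gave -0.98 to -0.77 for the main ratio, 0.31 to 0.49 for left over right, -0.29 to -0.13 for near over far (adjusted p = 0.125 without replicate B, exact permutation test), 0.44 to 0.47, 0.51 to 0.52 and 0.40 to 0.69 for the splits, 0.51 to 0.55 and -0.0539 to 0.0153 for chromosomes 1 and 3, and -0.119 to -0.0576 for the batches. The Spearman correlation with distance was -0.168 and -0.042 without A or B, -0.329 with both ends, -0.021 on log2(RPM + 1), -0.0818 with MEA F6 and MEA F8 joined, -0.75 in the first batch, -0.429 with NlaIII, -0.315 with the rest from 3 Mb on and -0.0424 without the 2 viewpoints farthest from the median. Band profiles of libraries of one letter had mean correlations of -0.0273 and 0.0034 in the batches (28 and 10 pairs), although the main ratio was higher in A in 11 of 12 viewpoints and left over right higher in B in 10. With both replicates of every viewpoint, the replicate block cannot move a ratio (main ratio -0.87) and so tests nothing there. It gave a Spearman correlation of -0.124 over 24 libraries. The smallest library had 876 reads on members.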

Other observations

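Satellite-like members were hit less often than other members in most viewpoints: 49 ± 10.3% of them carried reads on average over 12 viewpoints, against 58.1 ± 18% of the other members. In CKI1 and MEA F6 the share was higher in satellite-like members (50.8% against 44.8%, and 45.8% against 42.1%). The most-read satellite-like fragment took 3.88% (AG) to 8.2% (MEA F8) of the reads on this class. From FLC, satellite-like members carried 4.19 RPM, a level within the range of the viewpoints on other chromosomes (1.75 to 6.80), whereas the other members carried 22.2 RPM, above that range (3.39 to 8.43). Satellite-like members had no covered transcription on average (0%), and their mean H3K9me2 density was 37%, against 38.4% on the other right members.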
